A study of Mus musculus with 59 samples.

Results

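The comparison set prefrontal cortex from mice labelled Chd8-S62X heterozygous and given fluoxetine against prefrontal cortex from mice labelled wild-type and given vehicle, and it addressed how far treated mutant tissue lay from untreated wild-type tissue. It used 19 of the 59 libraries of the series, chosen by their library names: 9 labelled HT with fluoxetine (4 female, 5 male) and 10 labelled WT with vehicle (5 female, 5 male). All animals were C57BL/6J mice taken at postnatal day 25. The drug reached the pups through the mother's milk from day 3 to day 24, over 3 weeks, and the dose that each pup received is not given. The labels name no Cre or tissue promoter for the S62X allele of Chd8 that HT-labelled mice carry. The pairs that separate the 2 factors were also in the series: 10 libraries labelled HT with vehicle and 10 labelled WT with fluoxetine. The rest of the 59 libraries were labelled HT or WT with lithium, and all 59 entered the main limma model. The labels do not say that the libraries of a group came from separate dams, litters or mice. The limma p-values below therefore measure only the spread between libraries within the 12 groups of the series, which may be technical. The permutation p of Chd8 rests on the 19 libraries alone, with the same limit.

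CHD8 is a chromatin remodeller, an ATP-driven helicase that binds active promoters, and loss of 1 copy is among the strongest known genetic risks for autism. Fluoxetine blocks the serotonin transporter, which clears serotonin from the synapse, and is used as an antidepressant. In developing cortex serotonin acts through several G protein-coupled receptors and 1 ion channel class on neurons. The transporter itself is, in the adult brain, made mainly in the raphe nuclei of the brainstem.

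The position named by the allele is shown because it is the only base-level difference that the labels define between the genotypes. In the GENCODE M21 annotation of build GRCm38, codon 62 of Chd8 reads TCA, serine, and lies at chr14:52237387-52237389, in exon 2 of 38 of transcript Chd8-212 and exon 1 of 37 of transcript Chd8-201. The reference strand of the gene over 63 bases, chr14:52237357-52237419 on the minus strand, has codon 62 in capitals. The base change that makes the stop is not given in the sources used here.
Chd8 codon 62: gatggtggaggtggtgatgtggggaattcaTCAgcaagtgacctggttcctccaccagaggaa

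Chd8 RNA was higher, not lower, in the libraries labelled HT. The gene (ENSMUSG00000053754, chr14:52198151-52257780, minus strand) had normalized counts of 5713, 5513, 5597 and 5747 in the female and 5973, 6626, 6333, 6280 and 5907 in the male libraries labelled HT with fluoxetine. The libraries labelled WT with vehicle had 3825, 3502, 3237, 3771 and 3577 in females and 3385, 3857, 3537, 3559 and 3608 in males. Every HT-labelled library lay above every WT-labelled one, and the means stood at 5965 ± 375 (SD, n = 9) and 3586 ± 194 (SD, n = 10), a ratio of 1.66. The log2 difference was 0.73 ± 0.048 (SE), with an adjusted p of 2.23e-16 by limma. An exact two-sided permutation of the labels within sex gave p = 3.15e-05, the smallest that the 31752 arrangements allow. A stop codon often lowers the RNA of its allele through nonsense-mediated decay, so the direction goes against what the label would lead one to look for. The counts do not separate the alleles and say nothing of protein, and they do not tell whether the labels of the 2 genotypes were exchanged, which would turn the sign of each genotype difference. The genotype is therefore given below as labelled. The libraries labelled HT with vehicle had a mean of 5713 ± 382 (SD, n = 10) and those labelled WT with fluoxetine 3562 ± 400 (SD, n = 10), so the level of Chd8 followed the genotype label under both treatments.

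The other 9 members of the CHD remodeller family were not called, with log2 differences between -0.05 (Chd1) and 0.25 (Chd7, adjusted p = 0.695 by limma).

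**Figure D1:**
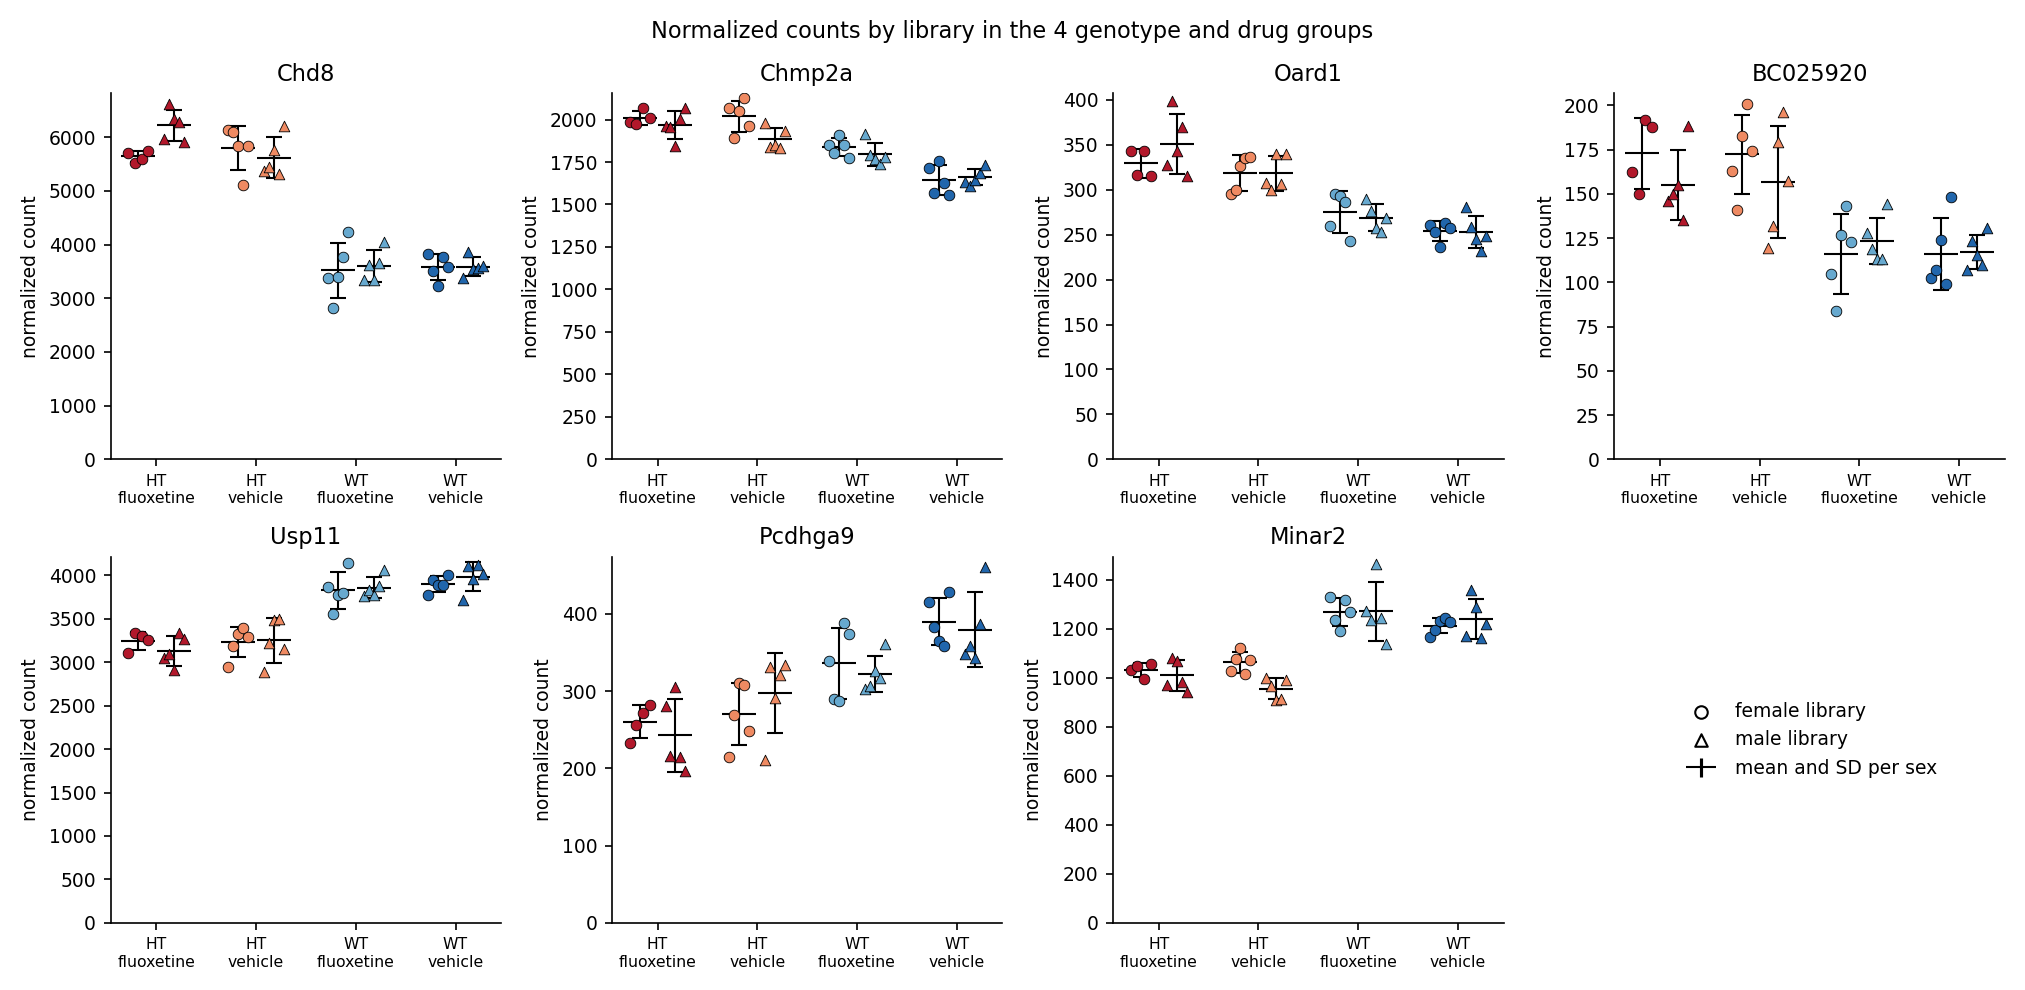
Normalized counts (vertical axis, from 0) of 7 genes in each library of the 4 genotype and drug groups; circles are female and triangles male libraries, with the mean and SD of each sex. In all 7 panels the HT-labelled libraries with fluoxetine sit beside the HT-labelled libraries with vehicle. For Chd8, Chmp2a, Oard1, Usp11, Pcdhga9 and Minar2 all 9 HT-labelled fluoxetine libraries lie outside the range of the libraries labelled WT with vehicle. For BC025920 the 2 ranges overlap.

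Across the transcriptome 58 of 16839 tested genes differed at an adjusted p under 0.05, which is 0.344%, with 36 higher (0.214%) and 22 lower (0.131%) in HT-labelled tissue with fluoxetine. At an unadjusted p under 0.05 there were 1753 (10.4%). The differences were small: absolute log2 values of the called genes ran from 0.11 to 0.73 with a median of 0.27, and none reached 1. Over all tested genes the median log2 difference was -0.0012 and 49.4% of genes lay above 0. All 58 called genes had the same sign in females and in males. In 13 of the 58 the 2 groups did not overlap, as in 15 of all tested genes (0.0891%). Of the 58 called genes, 52 were protein coding.

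Genes at the border of the call were Csnk1g1 (log2 -0.19, adjusted p = 0.0483), Smyd5 (-0.26, 0.0487) and Rpl36 (0.20, 0.0487) inside it, and Srp72 (-0.12, 0.0515), Cntn5 (-0.42, 0.0532) and Smad9 (0.21, 0.0559) outside it, all by limma.

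The count depended on single libraries. Without female replicate 1 of the HT-labelled fluoxetine group 22 genes were called, without its female replicates 2 and 3 there were 33 and 30, and without its male replicate 2 there were 36. Leaving out female replicates 2 and 3 of the WT-labelled vehicle group gave 38 and 36 calls, and leaving out its male replicates 2 and 3 gave 32 and 37. Leaving out any of the other libraries left up to 55. Of the 58 genes, 19 were called in all 19 of these fits. Without the libraries that were high in striatal markers, described below, 8 genes were called, all among the 58: Chd8, Chmp2a, Oard1, BC025920, Usp11, Pcdhga9, Minar2 and Rpa2. The first 7 of these were also called in all 19 leave-one-out fits and in all 10 other alternatives. The fit without the libraries high in striatal markers kept only replicates 3 and 4 of the treated females. A call lost there cannot be told apart from the effect of fewer libraries. Rpa2, a subunit of the single-strand DNA-binding replication protein A, falls outside the rule for named genes and is named after its values were seen; its log2 difference was 0.34 ± 0.072 (SE), adjusted p = 0.0145 by limma.

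Among the genes that rose, Chmp2a stood next to Chd8. It encodes a subunit of ESCRT-III, the filament that pinches membranes off in endosome sorting and cell division. Normalized counts were 1986, 1976, 2066 and 2010 in female and 1961, 1955, 1843, 2003 and 2068 in male HT-labelled libraries with fluoxetine. The WT-labelled vehicle libraries had 1716, 1570, 1754, 1628 and 1556 in females and 1635, 1611, 1647, 1685 and 1735 in males, all below the lowest HT-labelled library. The log2 difference was 0.27 ± 0.026 (SE; adjusted p = 2.26e-10 by limma), a ratio of 1.20. Of the 24 tested genes of the ESCRT list, Chmp2a alone was called (against 0.214% of all genes called higher), and the list median was 0.0074.

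Oard1 encodes a hydrolase that removes terminal ADP-ribose from modified proteins. It had 343.0, 316.1, 343.1 and 314.9 normalized counts in females and 327.8, 398.8, 342.9, 370.3 and 314.9 in males of the HT-labelled fluoxetine group. In the WT-labelled vehicle group the values were 261.1, 253.4, 236.1, 262.5 and 257.4 in females and 280.3, 259.1, 245.2, 231.4 and 248.9 in males. The groups did not overlap, and Oard1 rose by a log2 difference of 0.42 ± 0.053 (SE; adjusted p = 8.53e-07 by limma).

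The third gene of this kind, BC025920, had a median of 155.3 (range 135.3 to 191.5) against 112.5 (99.27 to 148.1) normalized counts. Here the groups overlapped through WT-labelled vehicle female replicate 5, the library at 148.1. Its log2 difference was 0.49 ± 0.10 (SE; adjusted p = 0.0103 by limma).

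The other leading genes that rose fell into several cellular roles. Rmdn2 (a regulator of microtubule dynamics; log2 0.34 ± 0.069 SE) and Tmem106c (0.30 ± 0.051) did not overlap between the groups. Nor did Ecsit (0.19 ± 0.037), an adaptor in Toll-like receptor signalling that also serves mitochondrial complex I assembly. Tmem106c had a lowest value of 558.1 normalized counts in HT-labelled fluoxetine libraries and a highest of 540.7 in WT-labelled vehicle libraries. Ubtd1 (a ubiquitin-domain protein; 0.33 ± 0.065), Crlf2 (a subunit of the receptor for the cytokine TSLP; 0.35 ± 0.070) and Mgat1 (the enzyme that opens the path to complex N-glycans; 0.14 ± 0.028) rose with some overlap. So did Rabggta (0.20 ± 0.040), the alpha subunit of the enzyme that attaches geranylgeranyl lipids to Rab proteins. Adjusted p for these 7 genes ran from 0.000644 (Tmem106c) to 0.0108 (Rmdn2) by limma.

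Bok, a Bcl-2 family member, spread widely within the treated group. Its counts were 904.2, 830.2, 789.6 and 636.3 in females and 921.2, 876.7, 799.9, 639.7 and 662.8 in males labelled HT with fluoxetine, against 584.6 to 697.8 in the WT-labelled vehicle group. Among the 9 treated libraries 3 of them, female replicate 4 and male replicates 4 and 5, lay within the WT range. These are also the 3 treated libraries with the lowest myelin and striatal marker levels, given below. Whether Bok follows these markers was not tested. With the myelin level as a covariate the log2 difference of Bok was 0.29 (adjusted p = 0.0317 by limma), and without the striatum-rich libraries it was 0.24 (adjusted p = 0.37). With all libraries the log2 difference was 0.32 ± 0.066 (SE; adjusted p = 0.0116 by limma), and the call was lost without HT-labelled fluoxetine female replicate 1 (adjusted p = 0.0646).

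Among the genes that fell, Usp11, a deubiquitinase encoded on the X chromosome, had the smallest p. Normalized counts were 3104, 3333, 3297 and 3254 in females and 3051, 3091, 2916, 3338 and 3267 in males labelled HT with fluoxetine. In WT-labelled vehicle libraries they were 3775, 3951, 3887, 3884 and 4007 in females and 3722, 4113, 3964, 4120 and 4016 in males. The highest treated library, at 3338, lay below the lowest WT-labelled one, at 3722. Usp11 fell by 0.31 ± 0.036 (SE) on the log2 scale (adjusted p = 1.69e-07 by limma).

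Pcdhga9 belongs to the gamma-protocadherins, cell-surface adhesion proteins whose combinations give neurons a surface identity. It had 232.9, 255.7, 272.0 and 281.3 counts in females and 280.1, 215.4, 305.7, 214.9 and 196.6 in males labelled HT with fluoxetine. The WT-labelled vehicle values were 415.0, 382.5, 364.9, 358.5 and 428.3 in females and 348.1, 358.6, 342.1, 386.9 and 460.2 in males, with no overlap. It fell by 0.62 ± 0.083 (SE) on the log2 scale (adjusted p = 3.66e-06 by limma). The gamma genes share their constant exons, so the estimate for 1 member depends on how the quantifier divided shared reads and is uncertain to that extent.

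Minar2, a membrane protein that binds the Notch2 receptor, had 1032, 1047, 993.5 and 1055 counts in females and 969.4, 1082, 1070, 984.0 and 941.3 in males labelled HT with fluoxetine. The WT-labelled vehicle group had 1168, 1196, 1233, 1242 and 1226 in females and 1170, 1357, 1290, 1163 and 1220 in males. All 9 treated libraries lay below all 10 WT-labelled ones, and the log2 difference was -0.26 ± 0.040 (SE; adjusted p = 4.2e-05 by limma).

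Stard4, which carries cholesterol between membranes, had a median of 916.2 (range 826.9 to 1050) against 1099 (1003 to 1272). Only HT-labelled fluoxetine male replicate 3, at 1050, reached the range of the WT-labelled vehicle group. Stard4 fell by 0.28 ± 0.056 (SE) on the log2 scale (adjusted p = 0.00743 by limma). Its call ended without the striatum-rich libraries (adjusted p = 0.0743), where the log2 difference stayed between -0.31 and -0.28 over the 10 alternatives.

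Bbip1 (a subunit of the BBSome, which sorts proteins into cilia) fell by 0.20 ± 0.039 (SE), and Alpk1 (an alpha-kinase of innate immune sensing) by 0.35 ± 0.070 on the log2 scale. Gm3693, annotated as an antisense transcript, fell by 0.39 ± 0.076. The library kit keeps strand, but how strand was used in quantification is not given in the sources used here, so its reads cannot be told apart from those of a gene on the other strand. Adjusted p was 0.00743 for each of the 3 by limma.

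Smim10l1 fell by 0.17 ± 0.036, Sec22c (of the SNARE-related Sec22 family of vesicle transport) by 0.18 ± 0.040, Hexa (the alpha subunit of lysosomal beta-hexosaminidase) by 0.13 ± 0.029 and Ino80 (the ATPase of another chromatin remodeller) by 0.16 ± 0.037 (SE, log2 scale). The pseudogene Gm19196 fell by 0.46 ± 0.11, and a pseudogene can share reads with its parent gene. Adjusted p ran from 0.0169 (Smim10l1) to 0.0368 (Gm19196) by limma. Without HT-labelled fluoxetine female replicate 1 all 5 of these calls were lost, and no other library ended the call of Smim10l1 (adjusted p = 0.0512). The call of Sec22c was also lost without HT-labelled fluoxetine female replicates 3 and 4 and male replicate 4, and without WT-labelled vehicle female replicate 4 and male replicates 3 and 5, with an adjusted p of up to 0.0625. Hexa was also lost without HT-labelled fluoxetine female replicate 2 and male replicate 2, and without WT-labelled vehicle female replicates 2, 3 and 4 and male replicates 2 and 3, with values up to 0.112. Ino80 was lost in 12 of the 19 fits: without HT-labelled fluoxetine female replicates 1, 2 and 3 and male replicates 1 and 4, and without WT-labelled vehicle female replicates 1, 4 and 5 and male replicates 1, 2, 3 and 5, with values up to 0.0887. Gm19196 was lost in 10: without HT-labelled fluoxetine female replicate 1 and male replicates 1, 3 and 4, and without WT-labelled vehicle female replicates 1, 3, 4 and 5 and male replicates 2 and 3, with values up to 0.153.

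**Figure D2:**
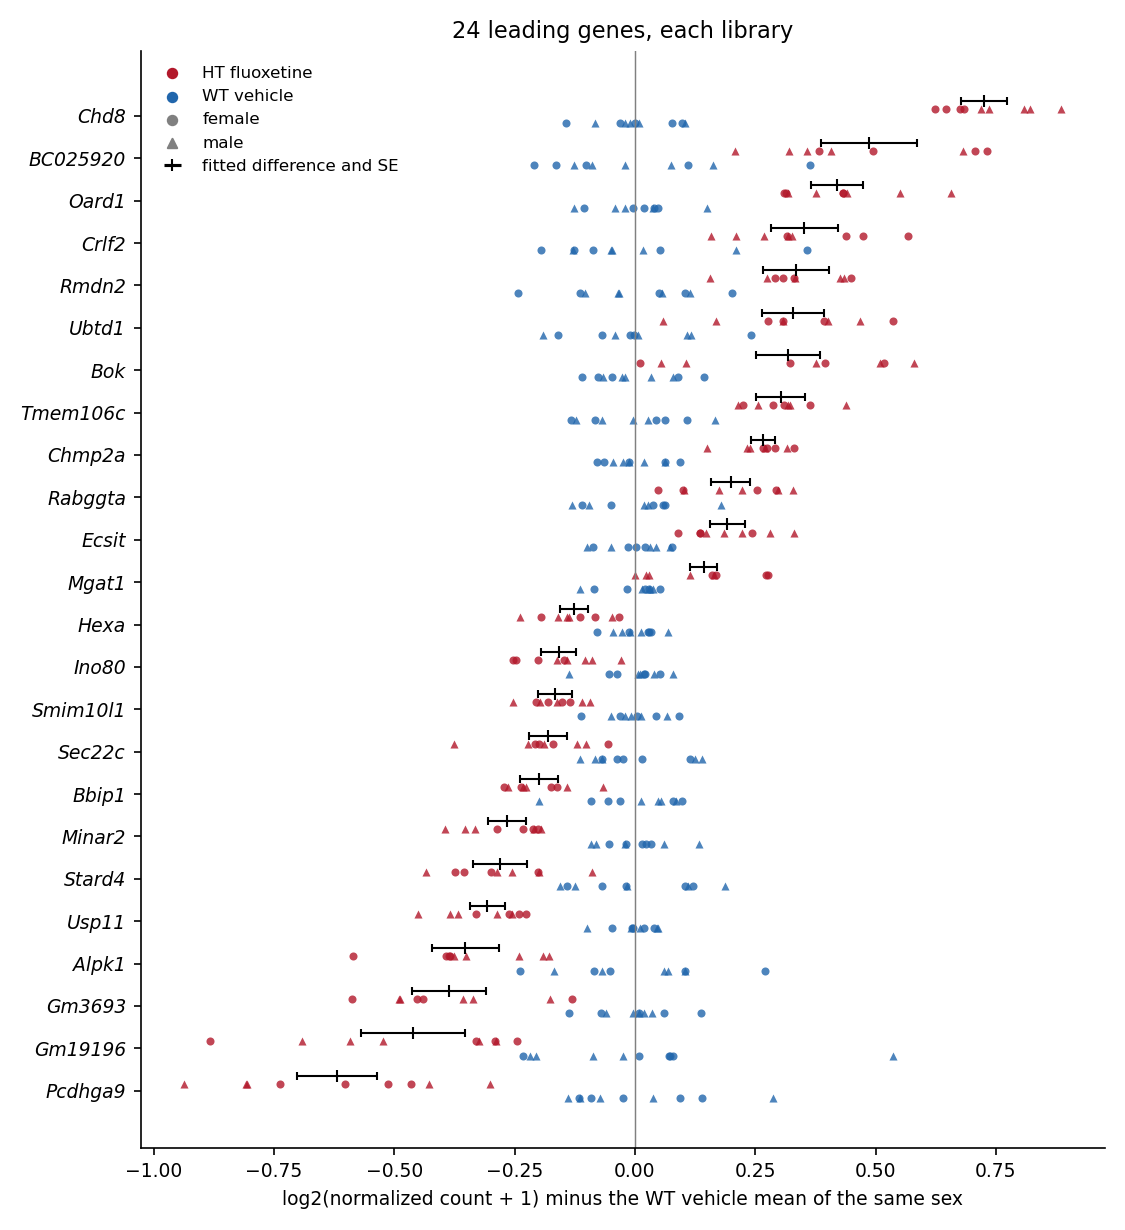
Horizontal axis: log2(normalized count + 1) of each library minus the mean of the WT-labelled vehicle libraries of the same sex, for the 24 leading genes; black bars give the fitted difference and its SE. The treated libraries of Chd8, Chmp2a, Oard1, Usp11, Pcdhga9 and Minar2 lie wholly to 1 side of the WT-labelled vehicle libraries, while those of Bok, Mgat1 and Hexa reach into them.

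The upstream sequences of Usp11 and Oard1 are shown as examples of a gene that fell and a gene that rose in every library. CHD8 occupancy at promoters is known to go with motifs of ETS transcription factors, whose core CCGGAA was searched on both strands, with TTCCGG as its reverse complement. The 250 bases before the RefSeq start (GRCm38.p6) are given 5′ to 3′ in the direction of transcription, for Usp11 at chrX:20703659-20703908 on the plus strand and for Oard1 at chr17:48409750-48409999 on the plus strand, with the motif in capitals.
Usp11: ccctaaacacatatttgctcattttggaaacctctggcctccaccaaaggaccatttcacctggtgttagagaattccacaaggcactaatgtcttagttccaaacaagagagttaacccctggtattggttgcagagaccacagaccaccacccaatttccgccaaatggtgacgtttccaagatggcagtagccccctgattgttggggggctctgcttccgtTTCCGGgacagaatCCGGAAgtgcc
Oard1: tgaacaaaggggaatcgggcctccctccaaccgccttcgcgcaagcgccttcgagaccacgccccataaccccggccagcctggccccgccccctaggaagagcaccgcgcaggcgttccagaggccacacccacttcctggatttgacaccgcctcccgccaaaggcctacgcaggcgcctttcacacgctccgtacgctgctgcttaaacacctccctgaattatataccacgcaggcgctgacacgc

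The Usp11 window held 2 matches, 25 and 11 bases before the start, and the Oard1 and Chmp2a windows held 0. The motif was held by 12.2% of all 27025 promoters of the table, and by 20.4% of the 12172 tested genes with a promoter there. Among the called genes with a promoter, 8 of 24 that rose (33.3%) and 2 of 16 that fell (12.5%) held it. The windows shown therefore do not stand for their directions. Only 40 of the 58 called and 12172 of the 16839 tested genes had a promoter in the table. Each share therefore covers a part of its set, and no difference between the shares was tested. A match is a string of letters and not a measured binding site.

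The same 24 genes were followed through the 2 steps that make up the distance, the genotype label and the drug. The genotype and drug comparisons share libraries with the one above and with each other, so their values are set side by side only. Between libraries labelled HT and WT under vehicle 34 genes were called (0.202%), between fluoxetine and vehicle in HT-labelled tissue 0, and between fluoxetine and vehicle in WT-labelled tissue 32 (0.19%). In HT-labelled tissue 857 genes passed an unadjusted p under 0.05 for fluoxetine against vehicle (5.09%). With fluoxetine in both genotypes 143 genes were called between HT-labelled and WT-labelled libraries (0.849%).

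For the 7 genes called in every alternative, the estimate of the genotype label under vehicle held most or all of the whole distance. For Chd8 it was 0.67 of 0.73 on the log2 scale, for Chmp2a 0.24 of 0.27, for Usp11 -0.28 of -0.31, for Minar2 -0.28 of -0.26 and for BC025920 0.48 of 0.49. For Oard1 it was 0.33 of 0.42 and for Pcdhga9 -0.45 of -0.62. All 7 were called between HT-labelled and WT-labelled vehicle libraries, with adjusted p from 1.71e-15 (Chd8) to 0.0117 (BC025920) by limma. For fluoxetine in HT-labelled tissue the estimates of these 7 genes lay between -0.17 (Pcdhga9) and 0.092 (Oard1), and the smallest adjusted p among all 24 was 0.862 (Gm3693).

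The split varied among the others of the 24. The genotype label under vehicle had 0.33 of 0.35 for Crlf2 and -0.17 of -0.20 for Bbip1, but 0.18 of 0.32 for Bok and -0.10 of -0.16 for Ino80. Gm3693 had -0.11 for the genotype label under vehicle and -0.28 for fluoxetine in HT-labelled tissue, and 0.046 for fluoxetine in WT-labelled tissue. Stard4 had -0.12 for the genotype label, -0.16 for fluoxetine in HT-labelled and -0.21 for fluoxetine in WT-labelled tissue. Smim10l1 had -0.063, -0.10 and -0.11 in the same order, and Sec22c -0.078, -0.10 and -0.12. None of the 12 estimates of Gm3693, Stard4, Smim10l1 and Sec22c was called. Chmp2a alone among the 24 was called for fluoxetine in WT-labelled tissue, at 0.14 on the log2 scale (adjusted p = 0.00741 by limma), with a mean of 1817 ± 60.5 (SD, n = 10) normalized counts there against 1654 ± 67.6 (SD, n = 10) under vehicle.

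Whether fluoxetine acted differently in the 2 genotypes was tested as an interaction, and 0 genes were called by limma, with 1040 (6.18%) at an unadjusted p under 0.05. With the first principal component as a covariate the count was 1, and 0 in the other alternatives. The 3 genes with the smallest p were Wnt2b (0.67, a secreted Wnt ligand), Particl (-0.37) and Nfia (0.31, a transcription factor of glial development) on the log2 scale, each with an adjusted p of 0.607. Nfia was called for fluoxetine in WT-labelled tissue (-0.25, adjusted p = 0.0318 by limma) and had 0.062 in HT-labelled tissue. The test of that difference is the interaction just given.

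**Figure D3:**
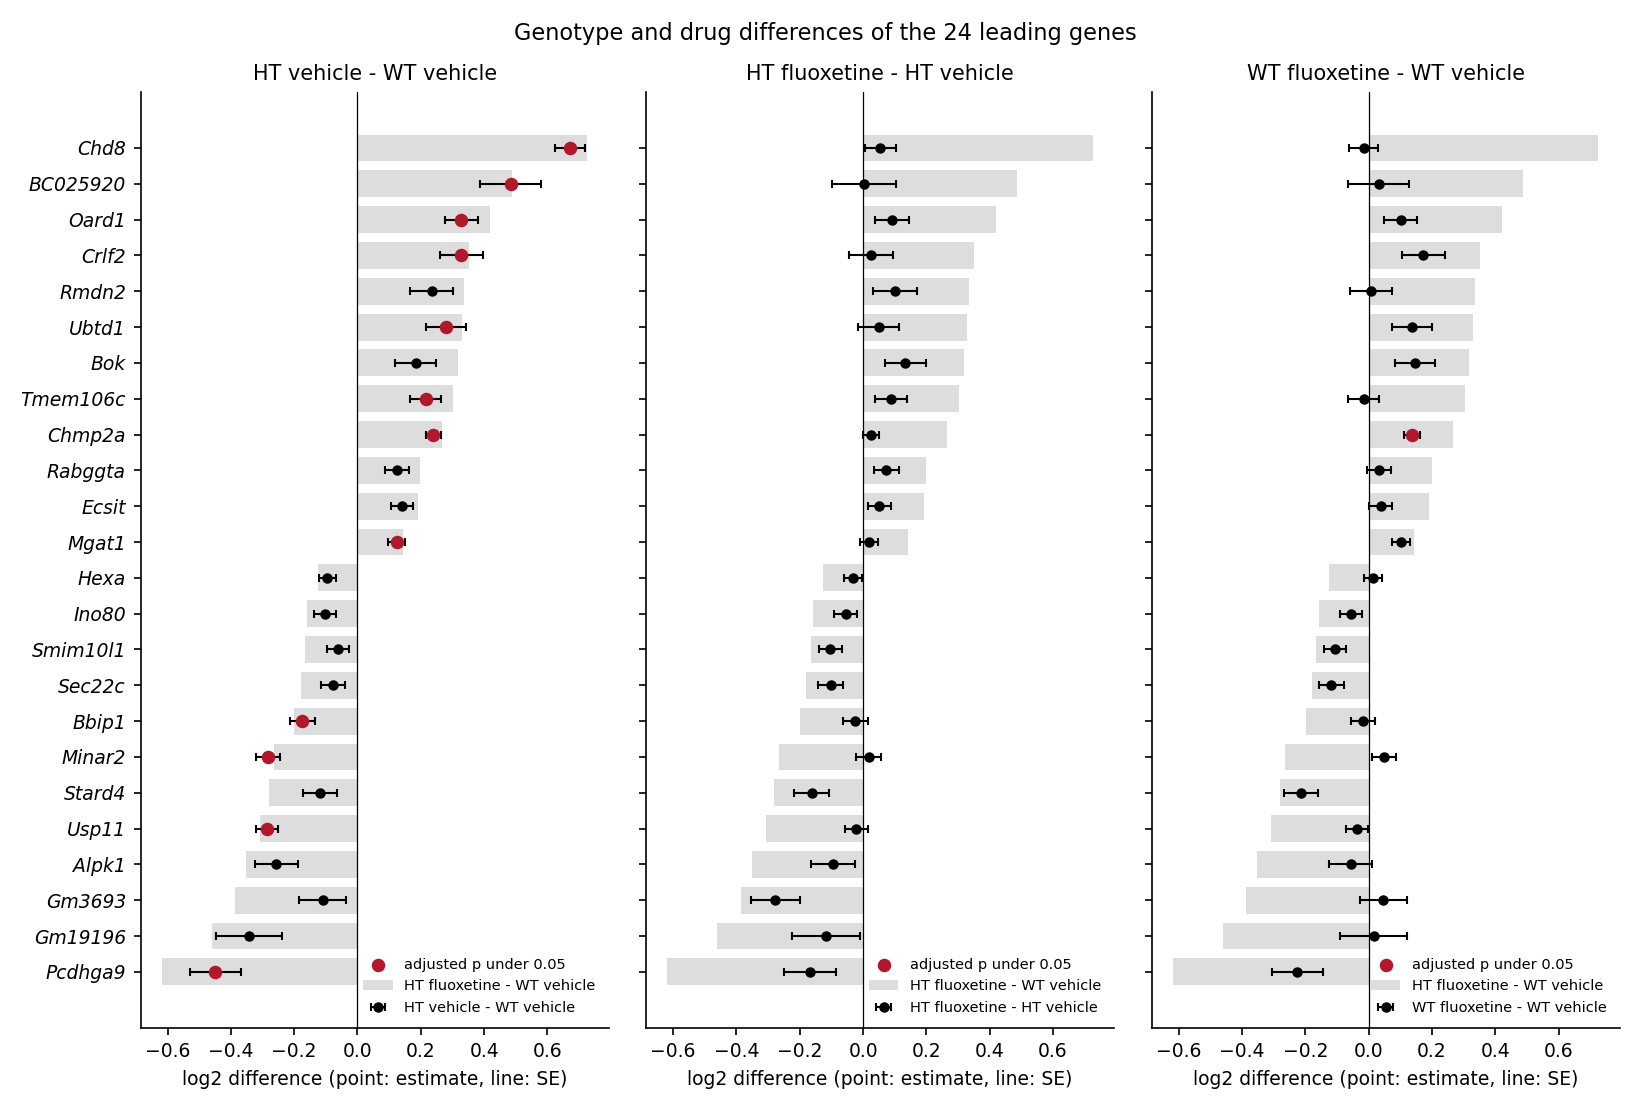
Log2 differences with SE of the 24 leading genes for the genotype label under vehicle, for fluoxetine in HT-labelled tissue and for fluoxetine in WT-labelled tissue, over grey bars for the whole distance; red points have an adjusted p under 0.05. Red points are present in the left panel, absent from the middle panel and limited to Chmp2a in the right panel.

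Another 3 genes, Smyd5, Parva and Dhx34, were among the 10 with the smallest p between HT-labelled and WT-labelled vehicle libraries. Each was nearer to the WT-labelled vehicle level with fluoxetine by its estimate. Of the same 10, Minar2 was also nearer, and Chd8, Chmp2a, Usp11, Oard1, Pcdhga9 and BC025920 were farther. Genes picked by this p tend to have vehicle estimates that are too large, and a smaller distance cannot be told apart from that selection. Smyd5, a SET and MYND domain protein, had -0.36 under vehicle and -0.26 for the whole distance, Parva, an actin-binding focal adhesion protein, 0.26 and 0.21, and Dhx34, a helicase of nonsense-mediated decay, 0.30 and 0.23. All 3 were still called across the distance (adjusted p from 0.0173 to 0.0487 by limma). Parva lost its call only without HT-labelled fluoxetine female replicate 1, among the 19 fits with a library left out. Smyd5 kept its call in 4 of them, those without HT-labelled fluoxetine male replicates 1 or 3 or WT-labelled vehicle male replicates 4 or 5. Dhx34 kept it in 2, those without female replicate 4 of either group. The drug steps themselves were 0.10, -0.046 and -0.065 with adjusted p from 0.906 to 0.923, so no return toward the WT-labelled level passed the test.

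Contrasts for each sex were taken from the same model. In females 6 genes were called (0.0356%): Chd8, Chmp2a, Oard1 and Mgat1 were higher (0.0238%) and Usp11 and Pcdhga9 lower (0.0119%). In males 12 were called (0.0713%), 9 higher (0.0534%) and 3 lower (0.0178%), with Minar2, Ecsit and Rpl14 among them. Mgat1 had a log2 difference of 0.22 ± 0.041 (SE) in females and 0.066 ± 0.039 in males, and Rpl14 had 0.046 ± 0.059 in females and 0.30 ± 0.055 in males. The test of the difference between the sexes called 0 genes by limma, with 444 (2.64%) at an unadjusted p under 0.05 and an adjusted p of 1 for both of these genes. Among the smallest p there were those of A830082N09Rik (-0.54) and Irf1 (0.65, female minus male on the log2 scale), each with an adjusted p of 1. The female count fell to 2 without HT-labelled fluoxetine replicates 2 or 3 or WT-labelled vehicle replicate 5, and to 3 without HT-labelled fluoxetine replicates 1 or 4 or WT-labelled vehicle replicates 3 or 4. The male count fell to 6 without WT-labelled vehicle replicates 2 or 3.

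Cell type markers are described before the gene groups. All libraries carry the same tissue label, so the markers cannot test that label against another region. All 19 markers of excitatory cortical neurons were tested and 0 called, with a mean log2 level of 11.04 to 11.44 in the treated and 11.11 to 11.31 in the WT-labelled vehicle libraries. The series has 8 libraries whose mean level of striatal projection neuron markers lay more than 5 robust SDs above the median, and 3 of them are among the 19: HT-labelled fluoxetine female replicates 1 and 2 (mean log2 10.17 and 10.39) and WT-labelled vehicle female replicate 5 (10.55). The other HT-labelled fluoxetine and WT-labelled vehicle libraries lay between 9.06 and 9.83. The rest of the 8 were HT-labelled vehicle female replicate 3 and libraries labelled lithium. In bulk tissue more cells of a type and more RNA per cell cannot be told apart. Normalized counts summed to between 31102152 and 33448784 per library. The correlation of log2 values between any pair of the 19 lay between 0.973 and 0.991.

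Myelin genes, made by mature oligodendrocytes, had the highest median of the 34 lists. All 15 had estimates above 0, with a median log2 difference of 0.29, but 0 of 15 was called and the smallest adjusted p was 0.373 (Aspa, by limma). The mean log2 level was 11.862, 11.753, 11.699 and 11.132 in females and 11.687, 11.777, 11.933, 11.278 and 11.174 in males labelled HT with fluoxetine. In the WT-labelled vehicle group it was 11.464, 11.291, 11.211, 11.213 and 11.622 in females and 11.459, 11.148, 11.094, 11.284 and 11.115 in males. Of the 9 treated libraries 6 lay above all 10 WT-labelled ones, and the other 3, the same that were low in Bok, lay within their range. Mbp (myelin basic protein, 0.32 ± 0.15 SE), Mog (0.37 ± 0.17) and Opalin (0.45 ± 0.22) had estimates above 0 on the log2 scale that did not pass the test.

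Summed myelin counts ran from 140000 to 235600 in the treated and from 132000 to 192000 in the WT-labelled vehicle libraries. The list median was 0.32 for fluoxetine in HT-labelled tissue, -0.17 for fluoxetine in WT-labelled tissue and -0.0035 for the genotype label under vehicle. For the interaction it was 0.49, with 15 of 15 above 0 and 0 called. There 12 of 15 had an unadjusted p under 0.05, against 6.18% of all genes. With fluoxetine in both genotypes the HT-labelled minus WT-labelled median was 0.50, with 1 of 15 called, against 0.849% of all genes. The list as a set was not tested. Leaving out any 1 library kept all 15 above 0, with medians from 0.27 to 0.38. With the level of the list as a covariate, 46 genes were called across the distance in place of 58. Markers of oligodendrocyte precursors had a median of 0.083, with 8 of 10 above 0 and 0 called; Olig2 had 0.18 and Sox10 0.26 on the log2 scale.

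Striatal markers had the next highest median of the lists after myelin. Of 12 tested, 11 had estimates above 0, the median log2 difference was 0.24 and 0 were called; Drd2, the dopamine D2 receptor, had 0.76 ± 0.55 (SE) and Ppp1r1b, the striatal phosphatase inhibitor DARPP-32, 0.43 ± 0.30. Summed counts ran from 13360 to 24850 in the treated and from 13550 to 27160 in the WT-labelled vehicle libraries. Without the high libraries the median was 0.20, and the median of the myelin list was 0.23.

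Meningeal fibroblast markers had the lowest median, -0.21, with 0 of 15 above 0 and 0 called. The collagen genes Col1a2 (-0.55 ± 0.18 SE, adjusted p = 0.214 by limma) and Col1a1 (-0.51) had the lowest estimates. For Col1a2, WT-labelled vehicle male replicate 5 had 7101 normalized counts against 1228 to 1652 in the rest of its group, and without it the log2 difference was -0.31. Summed counts ran from 21540 to 38170 in the treated and from 26830 to 48340 in the WT-labelled vehicle libraries, the last of these in male replicate 5, whose mean log2 level of 9.776 compared with 8.975 to 9.212 in the rest of its group. Without that library the median was -0.16 and 0 of 15 were above 0, and without the striatum-rich libraries it was -0.13 with 4 of 15 above 0.

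Microglia and macrophage markers had a median of -0.10, with 1 of 18 above 0 and 0 called. Their lowest estimates were those of Mrc1 (-0.50 ± 0.16 SE), Cd163 (-0.49) and Lyve1 (-0.48), which mark macrophages at the brain's borders. Among microglial genes Fcrls had -0.23, Cx3cr1 -0.012 and P2ry12 -0.0060. Summed counts ran from 12480 to 17210 in the treated and from 15580 to 18360 in the WT-labelled vehicle group. Without the striatum-rich libraries the median was -0.039 with 4 of 18 above 0.

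The median of olfactory bulb and neuroblast markers changed sign with the libraries used. It was -0.016 with 5 of 14 above 0, and 0.29 with 14 of 14 above 0 without the striatum-rich libraries. Tbx21, a transcription factor of bulb projection neurons, ranged from 2.021 to 348.1 normalized counts within the treated group alone. No direction is therefore given for this list.

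Inhibitory neuron, astrocyte, endothelial and mural, thalamic and blood cell markers had medians between -0.011 and 0.048, and 0 members were called. Of the markers of choroid plexus and ependyma 7 of 11 were tested, with a median of -0.12 and 0 called, and of the blood cell markers 6 of 10. Without the striatum-rich libraries the choroid plexus median was 0.019. Aldoc, an astrocyte enzyme of glycolysis, was closest to a call among all markers (0.19 ± 0.053 SE, adjusted p = 0.104 by limma). It was called in 2 of the 10 alternatives, with an adjusted p down to 0.00638 with the first principal component as a covariate and up to 0.705 without the striatum-rich libraries, and in 1 of the 19 leave-one-out fits, that without HT-labelled fluoxetine male replicate 4 (0.0424).

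**Figure D4:**
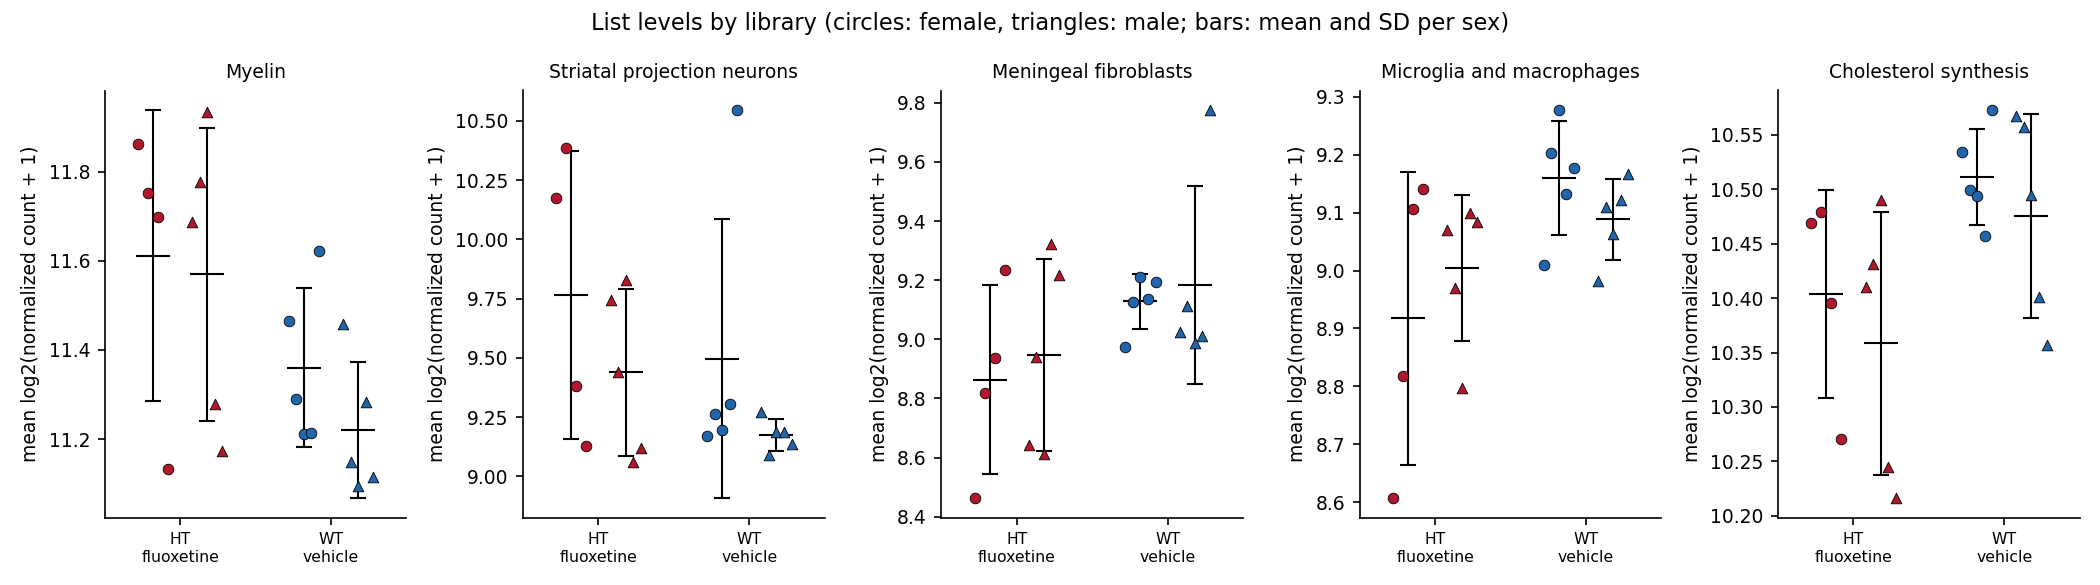
Mean log2(normalized count + 1) over the members of 5 gene lists in each library labelled HT with fluoxetine or WT with vehicle, with the mean and SD of each sex. The 3 striatum-rich libraries lie above 10, 6 treated libraries lie above 11.6 for myelin with WT-labelled vehicle female replicate 5 at 11.622, and WT-labelled vehicle male replicate 5 lies alone at 9.776 for meningeal markers.

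Of 25 tested genes of the cholesterol synthesis list, 23 had estimates below 0 and the median log2 difference was -0.13. Its 1 called member was Stard4, a carrier and not an enzyme of synthesis, against the 0.131% of all genes called lower. Sqle (-0.17, 0.192), the squalene epoxidase, Msmo1 (-0.19, 0.312), a sterol methyl oxidase, and Pmvk (-0.16, 0.0824), a mevalonate pathway kinase, did not pass the test by limma. At an unadjusted p under 0.05 there were 14 of 25, against 10.4% of all genes. Other lists also had such members: myelin 6 of 15, microglia and macrophages 6 of 18, meningeal fibroblasts 4 of 15 and oxidative phosphorylation 16 of 74. Further lists had few or none, such as 0 of 12 for striatal markers.

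The mean log2 level of the cholesterol list was 10.469, 10.479, 10.396 and 10.271 in females and 10.410, 10.431, 10.490, 10.245 and 10.216 in males labelled HT with fluoxetine. In the WT-labelled vehicle group it was 10.534, 10.499, 10.494, 10.457 and 10.573 in females and 10.567, 10.557, 10.495, 10.401 and 10.357 in males. The groups overlapped, chiefly through WT-labelled vehicle male replicates 4 and 5. The list median was -0.10 for fluoxetine in WT-labelled tissue, -0.087 for fluoxetine in HT-labelled tissue and -0.031 for the genotype label under vehicle. It stayed between -0.15 and -0.098 with each library left out, and was -0.14 with 0 called without the striatum-rich libraries. The 3 treated libraries with the lowest level, female replicate 4 and male replicates 4 and 5, were also those with the lowest myelin level. The part of myelin, a large user of cholesterol, in the list median was not tested. With the myelin level as a covariate Stard4 had -0.30 on the log2 scale (adjusted p = 0.0077 by limma).

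Serotonin receptors and handling genes, the direct surroundings of the drug's target, had 0 of 17 called and a median of -0.065, with 6 above 0. Htr7, a receptor that raises cyclic AMP, had the smallest p. Its counts were 226.5, 242.7, 224.3 and 212.4 in females and 218.7, 189.1, 245.9, 208.4 and 261.7 in males labelled HT with fluoxetine. In the WT-labelled vehicle group they were 197.3, 191.4, 162.2, 183.8 and 213.9 in females and 197.5, 197.6, 188.7, 186.3 and 217.6 in males. The groups overlapped, and the log2 difference was 0.22 ± 0.073 (SE; adjusted p = 0.217 by limma). The receptors Htr1a (-0.010) and Htr2a (-0.0030) lay near 0, and Maoa, which degrades serotonin, had 0.062. The transporter gene Slc6a4 and the receptor genes Htr2b and Htr3b were too low to be tested.

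Translation and energy genes held the other called members of lists. Of 81 cytosolic ribosomal protein genes 3 were called, all higher (against 0.214% of all genes): Rpl21 (0.15 ± 0.031 SE, adjusted p = 0.0125), Rpl14 (0.17 ± 0.040, 0.0387) and Rpl36 (0.20 ± 0.048, 0.0487), by limma. The list median was 0.033 and 60 of 81 lay above 0. For fluoxetine in WT-labelled tissue Rpl21 (0.16, adjusted p = 0.00927) and Rpl14 (0.205, 0.0108) were called by limma, and Rpl36 (0.19, 0.0619) was not. For the genotype label under vehicle the 3 genes had 0.087, 0.051 and 0.16, and for fluoxetine in HT-labelled tissue 0.062, 0.12 and 0.038, with none called. The list medians of these comparisons were 0.071, 0.019 and 0.011 in the same order. These genes have many near-identical processed copies in the genome, so their values are uncertain where reads could be divided among copies. Rpl21 had 5484 to 5897 normalized counts in the treated and 4816 to 5459 in the WT-labelled vehicle libraries, with no overlap, while Rpl14 had 2002 to 2924 against 2015 to 2370. Without the striatum-rich libraries 0 of the 81 were called, and Rpl14 and Rpl36 also lost their call when only the groups compared entered the fit. With 1 library left out Rpl21 was called in all 19 fits. Rpl36 was called in 3, those without HT-labelled fluoxetine female replicate 4 or male replicate 3 or WT-labelled vehicle male replicate 5. Rpl14 was called in 10, and lost without HT-labelled fluoxetine replicates 1 and 2 of either sex and WT-labelled vehicle female replicates 2, 3 and 5 and male replicates 2 and 3.

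Of 74 oxidative phosphorylation genes 1 was called, higher (against 0.214% of all genes), Ndufs8, an iron-sulphur subunit of complex I (0.16 ± 0.037 SE, adjusted p = 0.0276 by limma). It had 1882, 1916, 1817 and 1562 counts in females and 1816, 1829, 1728, 1754 and 1742 in males labelled HT with fluoxetine, against 1478 to 1679 in the WT-labelled vehicle group. Female replicate 4, at 1562, was the only treated library within the WT-labelled range. The call was lost in 5 of the 10 alternatives, with an adjusted p of up to 0.504, among them the fit without the striatum-rich libraries and the fits with the myelin or the meningeal level as a covariate. It was called in 12 of 19 fits with 1 library left out, and lost without HT-labelled fluoxetine female replicates 1, 2 and 3 and male replicate 2 and WT-labelled vehicle female replicates 2 and 4 and male replicate 5. The list median was 0.018.

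Mitochondrial ribosomal proteins (78 tested, median 0.016) and proteasome subunits (31, 0.016) had 0 called. The largest estimate in these 2 lists was that of Mrpl23, a protein of the large mitochondrial ribosome subunit, at 0.52 ± 0.16 (SE; adjusted p = 0.168 by limma).

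Synaptic, activity and stress genes held 0 called members. Glutamate receptors and postsynaptic scaffolds had a median of -0.040 with 9 of 35 above 0, GABA receptors -0.036 with 3 of 15, and voltage-gated channels -0.037 with 12 of 31. Grm7, a presynaptic glutamate receptor, had -0.15 and Gria2, the subunit that sets calcium entry of AMPA receptors, -0.10 on the log2 scale. The list of immediate early genes had its median at -0.0073 and 9 members of 19 above 0, but -0.16 with 3 of 19 above 0 without the striatum-rich libraries, and medians from -0.11 to 0.089 with each library left out. Npas4, an activity-induced transcription factor, ranged from 400.7 to 601.3 normalized counts in the treated and from 317.6 to 1042 in the WT-labelled vehicle group.

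Neurotrophin signalling (13 tested, median -0.046), glucocorticoid response (15, -0.0075), circadian clock (18, -0.034), heat shock chaperones (19, 0.011), ER and amino acid stress response (20, 0.037), interferon response (22, 0.043) and Wnt signalling genes (28, -0.013) also had 0 called. Without the striatum-rich libraries the circadian median was -0.070 with 1 of 18 above 0, and the heat shock median turned to -0.031 with 7 of 19 above 0. The largest estimate of a named member was that of Ifit1, an interferon-induced RNA-binding protein, at 0.43 ± 0.17 (SE; adjusted p = 0.312 by limma).

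In the 2 other chromatin lists 0 members were called; Ino80, described above, is in neither. The BAF remodelling complex had a median of -0.0038 with 13 of 26 above 0, and its ATPase gene Smarca4 had 0.057. Autism-linked chromatin regulators had a median of -0.032 with 10 of 32 above 0.

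**Figure D5:**
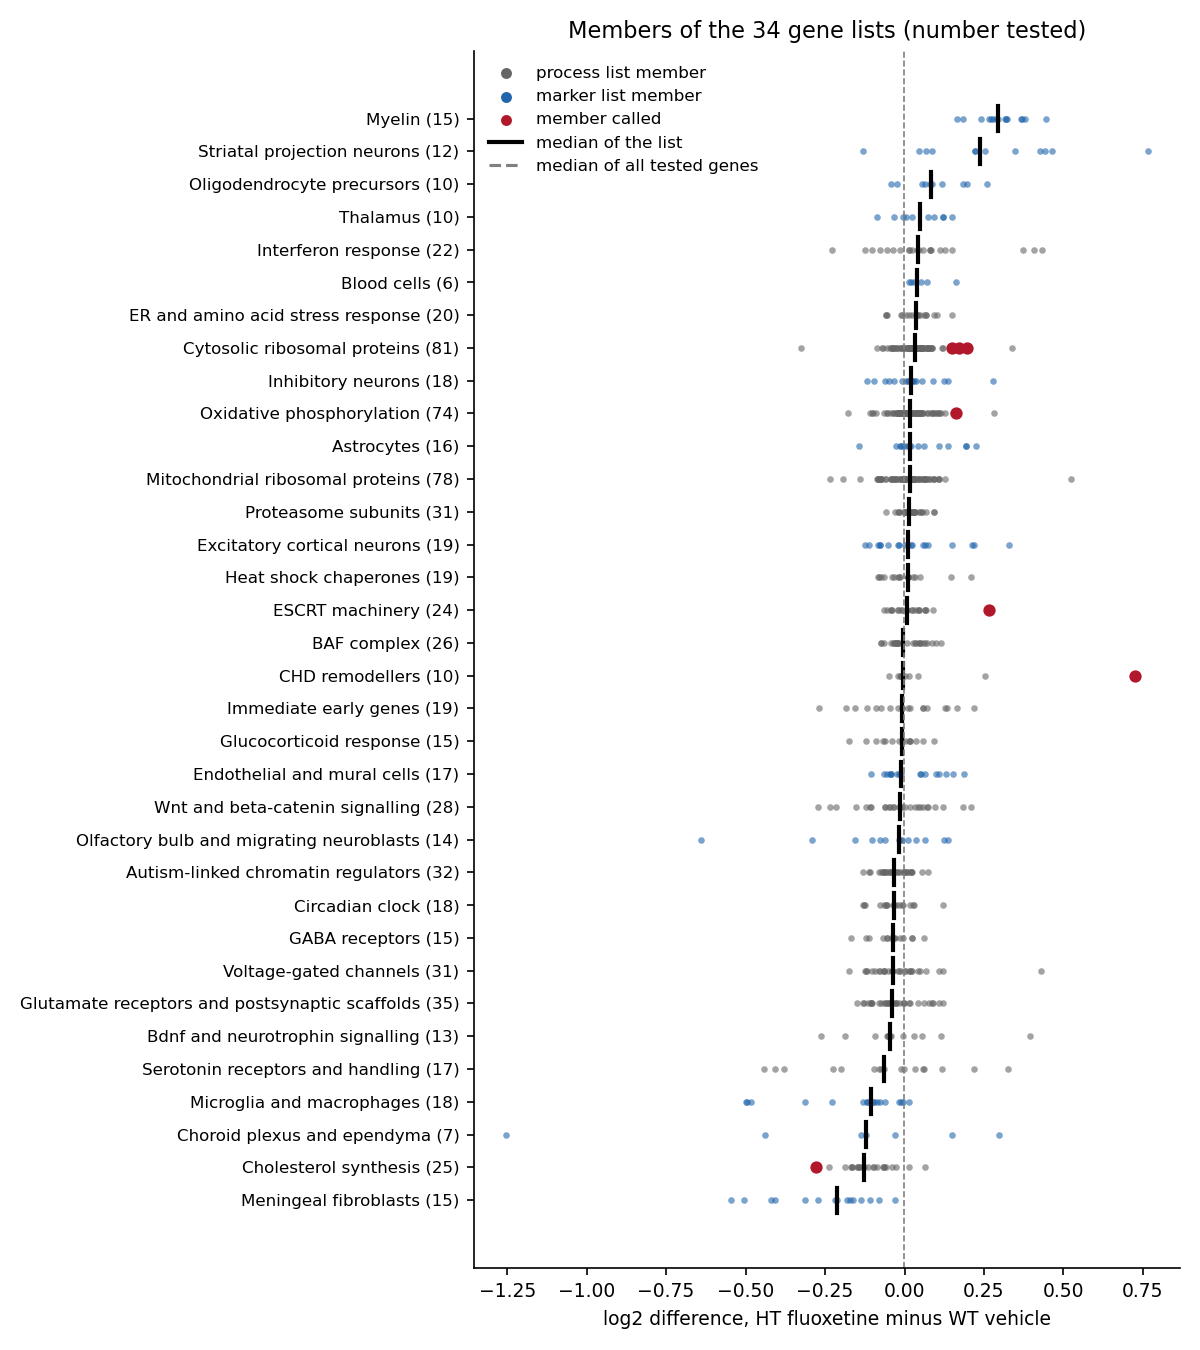
Log2 difference, HT-labelled fluoxetine minus WT-labelled vehicle, of each tested member of 34 gene lists, with the number tested, the list median (black) and the median of all tested genes (dashed); red points are called. Medians lie between -0.21 (meningeal fibroblasts) and 0.29 (myelin), and the red points are Chd8, Chmp2a, Ndufs8, Stard4 and 3 ribosomal protein genes.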

How the data were processed

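RNA was sequenced from stranded mRNA libraries of prefrontal cortex. Reads were processed with Salmon 0.11.2, R 3.6.0 and DESeq2 1.19.11 on GRCm38, per the submitters' processing notes. The deposited signal values are normalized counts per gene made by the authors; they are not whole, at most 40.8% of values under 20 were whole multiples of 1 step in any library (tolerance 0.02 steps), so reads were not recovered and depth is known only as sums of normalized values. Of 51456 genes, 51285 matched a symbol and 17301 were 0 in every library; 16839 with a mean of at least 10 were tested.

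Values were tested as log2(value + 1) with limma 3.58.1 (R 4.3.3, trended and robust empirical Bayes, Benjamini-Hochberg over all tested genes, call at 0.05) in 1 model with 12 group means over 59 libraries, female and male contrasts averaged. Folds on this scale understate the change of low genes. Named genes were Chd8, the 12 smallest p per direction with a mean of at least 50, list members (up to 4 called, otherwise the 2 smallest p), the 3 smallest p of the sex and interaction tests and the 10 smallest p of the vehicle genotype comparison; others are marked or sit in lists. Some genes that the rule names are not reported here. The members of the comparison and the 34 gene lists were chosen with earlier results of these data known. The code was tested on simulated data. Alternatives were other scaling (trimmed mean of M-values, TMM), filters, pseudocounts, shrinkage, samples, covariates, a replicate block and leaving out each library; those with a myelin or meningeal covariate, and lists without libraries, were chosen after seeing the data.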

Additional observations from a re-analysis of the deposited data

Results flagged for a closer look

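In 9 of 148 groups of values 1 library stood far from the rest of its group; chance alone flags about 1 in 20 groups. Alpk1 was low in HT-labelled fluoxetine female replicate 4, at 130.5 normalized counts against 149.3 to 150.2 in the others. Gm19196 was low in HT-labelled fluoxetine female replicate 1 (44.1 against 65.13 to 69.18) and in WT-labelled vehicle female replicate 2 (69.84 against 82.7 to 86.86), and high in WT-labelled vehicle male replicate 3 (117.8 against 69.49 to 79.62). Mgat1 was low in WT-labelled vehicle male replicate 4 (1266 against 1384 to 1405). Bbip1 was low in WT-labelled vehicle male replicate 5 (1112 against 1287 to 1354). Among mean log2 levels of marker lists, the striatal level was high in WT-labelled vehicle female replicate 5 (10.55 against 9.171 to 9.307). The endothelial and mural level was high in WT-labelled vehicle female replicate 3 (9.88 against 9.693 to 9.745), and the meningeal level in WT-labelled vehicle male replicate 5 (9.776 against 8.988 to 9.114).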

How the results depend on the processing

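Chd8 kept its direction and its call in all 10 alternatives (log2 0.72 to 0.73) and in all 19 fits with 1 library left out. The count of 58 genes became 30 with no filter on low values (17 in females), 34 with only the groups compared (3 in females, 7 in males) and 8 without the striatum-rich libraries (2 in females). It became 198 with the first principal component as a covariate (10 in females, 43 in males, 1 for the interaction) and 95 with the meningeal level as a covariate; the cause was not tested. Of the 58, 27 were called with no filter, 26 with only the groups compared and all 58 with the principal component. Leaving out 1 library gave 22 to 55 calls, 2 to 6 in females and 6 to 13 in males. Tbx21 reversed to 0.020 without the striatum-rich libraries and 0.29 with the meningeal covariate, and with the myelin covariate Ppp1r1b became -0.0060 and Particl 0.0020. TMM scaling gave 61 calls, and the all-gene median shifted by no more than 0.0036 on the log2 scale. With the replicate number as a block 67 genes were called, 49 of them among the 58. Among the named genes Aldoc was gained and the calls of Dhx34, Rpl14 and Rpl36 were lost (adjusted p from 0.0521 to 0.0537 by limma). The numbers were not taken as pairs, since no label says what they pair. Of 9 same-numbered pairs 4 had correlated deviations over 0.1, up to 0.417 for male replicate 5. Of 9 libraries 3 correlated best with their own number. These values cannot decide whether the numbers pair libraries. Read depth is unknown, which limits what can be said of low genes.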

Other observations

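Chromosome 14, which carries Chd8, held 2 of the 58 called genes among 594 tested; the other, Rabggta, lies 3.52 Mb from Chd8. Chromosome 18 held 5 of 476 tested genes, all lower (Pcdhga9, Minar2, Stard4, Pcdha11 and Mapre2), and chromosome 9 held 9 of 980. Over all tested genes 0.344% were called and 0.131% were called lower. These counts were made after the calls were seen and have no test.

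Among the 58 called genes not described above, Cd36, a fatty acid and lipid scavenger receptor, fell by 0.73 ± 0.16 (SE) on the log2 scale at a low level (adjusted p = 0.024 by limma), and 1500035N22Rik fell by 0.68 ± 0.16 (adjusted p = 0.0306). Kifc1, a mitotic kinesin with a mean of 46.94 normalized counts over all libraries, had 0.20 in females and 1.04 in males on the log2 scale. It was not called in the test of the difference between the sexes. Over both sexes it was called (0.62 ± 0.14, adjusted p = 0.0306 by limma). Pcdha11, an alpha-protocadherin of the same gene cluster region as Pcdhga9, fell by 0.52 ± 0.12 (adjusted p = 0.043). With 1 library left out Cd36 was called in 13 of 19 fits, Kifc1 and 1500035N22Rik in 10 and Pcdha11 in 4, and none of the 4 was called without the striatum-rich libraries. These genes were chosen after their values were seen.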
